A study of Rattus norvegicus with 48 samples.

Results

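Livers of rats given a high dose of thioacetamide (TAA), a compound toxic to the liver, for 3 days were compared by miRNA-seq with livers of rats given a low dose for the same time. The comparison used 6 of the 48 libraries of the series, namely high dose replicates 22, 23 and 24 and low dose replicates 43, 44 and 45, and no vehicle controls. The low dose was 4.5 mg/kg and the high dose 45 mg/kg, given daily to male Sprague-Dawley rats, whose livers were taken on the day after the last dose. Each library came from a different rat, and every rat of both groups received TAA, so the comparison shows how the doses differ and not what TAA does. Of 764 mature miRNAs in the counts, 664 had a read in some library and 576 had a read in these 6. Tests covered the 301 that reached 5 RPM (counts scaled to the same total in every library) in 3 or more of the 48 libraries. The age of the rats is not given in the labels.

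A miRNA is a short RNA cut from a hairpin precursor. The hairpin yields a 5p and a 3p strand, of which one is often loaded into the Argonaute protein far more than the other. The loaded strand pairs with messenger RNAs mainly through its seed, bases 2 to 8, and lowers their stability and translation. Liver tissue is rich in a few hepatocyte miRNAs, and injured liver is known to change miRNAs of cell division, inflammation and the extracellular matrix.

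Of the 301 tested miRNAs, 270 matched a mature rat sequence of RefSeq (GRCr8). The sequences below belong to the miRNAs with the clearest dose difference and to relatives that share their seed, which is in capitals. Among those higher with the high dose, miR-19a-3p and miR-19b-3p differ at 1 of 23 bases, whereas the miR-29 strands differ at 1 or 4 of 22 bases.
miR-19a-3p: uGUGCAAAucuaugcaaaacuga
miR-19b-3p: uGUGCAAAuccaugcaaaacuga
miR-29a-3p: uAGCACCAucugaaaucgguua
miR-29b-3p: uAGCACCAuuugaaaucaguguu
miR-29c-3p: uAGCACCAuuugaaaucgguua
miR-132-3p: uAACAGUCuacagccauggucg
miR-212-3p: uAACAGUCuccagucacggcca
miR-128-3p: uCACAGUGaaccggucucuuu
miR-21-3p: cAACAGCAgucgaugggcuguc

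Among those lower with the high dose, both arms of the miR-181c hairpin are shown beside the miR-181a strands with the same seeds. The pair miR-101a-3p and miR-101b-3p differ at 1 of 21 bases, and miR-1843a-5p and miR-1843b-5p share a run of 20 bases, so that reads could be split between the members of either pair.
miR-181a-5p: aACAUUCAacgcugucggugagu
miR-181c-5p: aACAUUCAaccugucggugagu
miR-181a-1-3p: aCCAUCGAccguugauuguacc
miR-181c-3p: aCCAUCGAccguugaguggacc
miR-148a-5p: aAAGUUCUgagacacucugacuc
miR-378a-3p: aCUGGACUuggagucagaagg
miR-101a-3p: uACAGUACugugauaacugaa
miR-101b-3p: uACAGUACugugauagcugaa
miR-1843a-5p: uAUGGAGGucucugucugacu
miR-1843b-5p: aUGGAGGUcucugucugacuuag

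The low dose libraries held 7985101, 8050678 and 7860246 counts and the high dose libraries 10303876, 10593255 and 13230394. The limit that a count of 0 allows, 3 counts, was worth between 0.227 and 0.382 RPM in these 6 libraries, for counting error only. The most abundant strand was miR-22-3p in high dose replicate 24 and miR-192-5p, a hepatocyte miRNA, in the other 5 libraries. Levels are given below as upper quartile normalized RPM, in which libraries are also scaled by the upper quartile of their counts. Pearson's r of log2 (normalized RPM + 1) over the 301 miRNAs was 0.991 to 0.993 among the low dose rats and 0.990 between high dose replicates 22 and 23. High dose replicate 24 stood apart, with r of 0.981 and 0.978 to the other high dose rats, 0.978 to 0.980 to the low dose rats, and 0.985 to 0.986 to 3-d control replicates 2 and 3. In this library 172 of the 301 miRNAs (57.1%) lay nearer to the low dose mean than to the mean of the other high dose rats. Where leaving it out changed how many miRNAs of a group were called different, that count is given too. Among the 3-d controls, replicate 1 had 293331 counts and is shown for its values only.

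miR-34a-5p is the best known miRNA induced by p53 after DNA damage and represses genes of the cell cycle. Its upper quartile normalized RPM was 248, 260 and 254 in the low dose rats, and 254, 290 and 33.5 in high dose replicates 22, 23 and 24. The value of replicate 24 lay below every low dose rat and beside the 3-d controls, which held 14.1, 38.7 and 51.7. The log2 fold change of high over low dose was -0.40 ± 0.62 (SE, adjusted p = 0.731), and without replicate 24 it was 0.10. The other strand, miR-34a-3p, was not tested and had raw counts of 3, 5 and 4 in the low dose rats and of 19, 22 and 1 in the high dose rats.

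**Figure D1:**
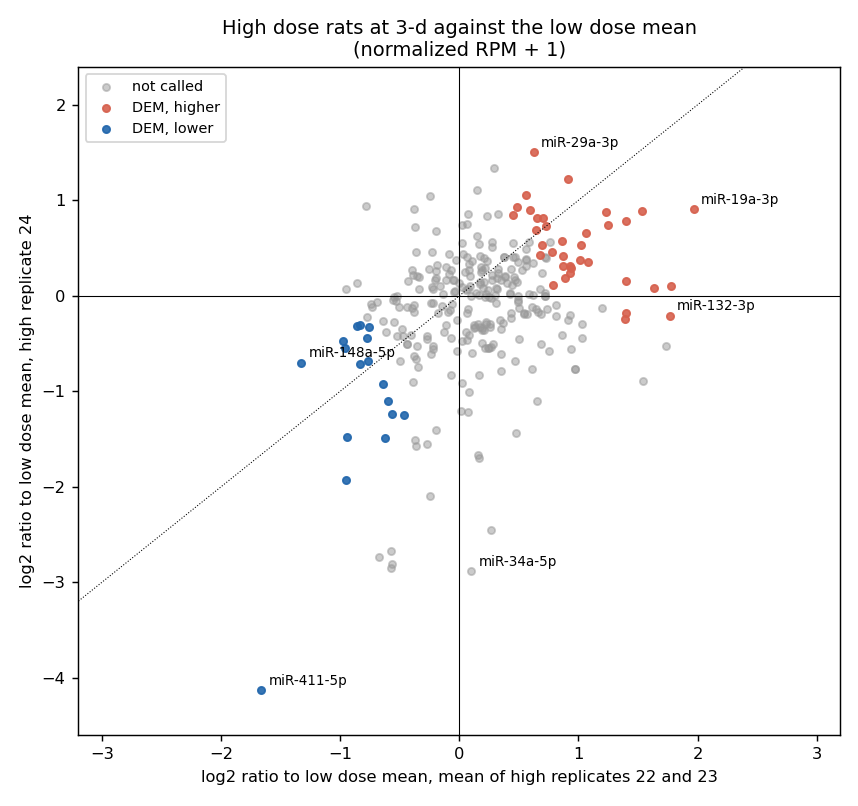
Each point is 1 of the 301 tested miRNAs. The x axis is the log2 ratio of the mean of high dose replicates 22 and 23 to the low dose mean, the y axis is the same ratio for high dose replicate 24, both of normalized RPM + 1, and the dotted line marks equal values. Several of the higher differentially expressed miRNAs (DEMs, in red, defined below) lie far to the right and near 0 on the y axis, and miR-34a-5p lies near 0 on the x axis and far below 0 on the y axis.

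More miRNAs were higher than lower with the high dose, an order that turned with DESeq2's size factors, with its Wald test and with no filter on low counts. A differentially expressed miRNA (DEM) had to exceed a 1.5-fold change with p below 0.05 before adjustment, and 53 of 301 miRNAs (17.6%) differed between the doses. Of these, 36 (12%) were higher with the high dose, among them strands of the miR-17 to miR-92a cluster, miR-128 and the miR-29 family. The other 17 (5.65%) were lower, and miR-148a-5p, miR-181c-5p, miR-378a-3p and miR-200a-3p had the smallest p-values among them. The higher DEMs had log2 fold changes of 0.60 to 2.42 (median 0.79) and the lower DEMs of -2.25 to -0.60 (median -0.78), whereas the median over all 301 was 0.15. The 6 values did not overlap between the doses for 91 miRNAs (30.2%), of which 45 were DEMs, 28 of the 36 higher and 17 of the 17 lower ones.

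No miRNA passed a Benjamini-Hochberg adjusted p-value of 0.05 in edgeR's quasi-likelihood F-test. The smallest adjusted p was 0.0698, 20 miRNAs were below 0.1 and 67 had an unadjusted p below 0.05. On the same libraries edgeR's exact test placed 22 miRNAs past the adjustment and the Wald test of DESeq2 34. Without high dose replicate 24 the quasi-likelihood test gave 86 DEMs, 63 higher and 23 lower, and 80 miRNAs past the adjustment. Leaving out any other single library gave 35 to 45 DEMs and 0 or 1 miRNAs past the adjustment. Of the 53 DEMs, 47 were DEMs again without replicate 24, and 40 of the 53 passed the adjustment in that setting. The split of directions moved with the scaling, with 30 higher and 22 lower DEMs under TMM, 25 and 30 under DESeq2's size factors and 46 and 8 under library size alone. With no filter there were 32 higher and 53 lower DEMs, and with the Wald test 25 and 31. The median over all miRNAs was 0.07, 0.02 and 0.26 under the 3 scalings, and 33 of the 53 DEMs were called under all 3. Each of the 53 kept its sign in these 3, which shifts this small could hardly turn in miRNAs beyond a 1.5-fold change.

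**Figure D2:**
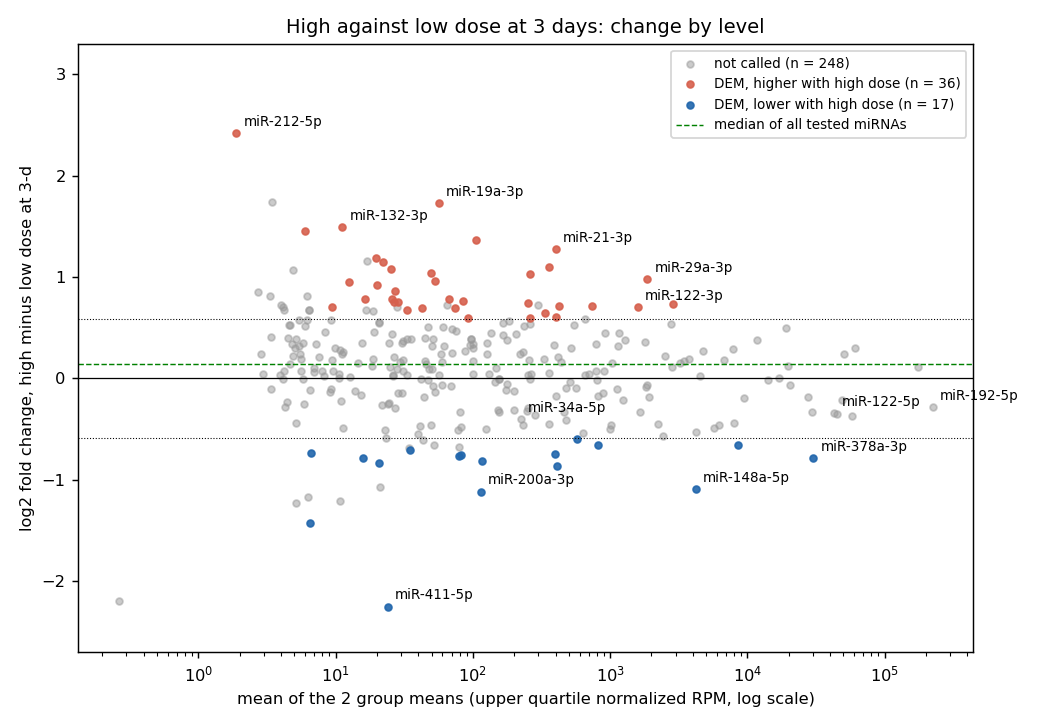
The x axis is the mean of both group means in upper quartile normalized RPM on a log scale and the y axis the log2 fold change of high over low dose at 3-d. Red points are the 36 higher DEMs, blue points the 17 lower DEMs, the dotted lines mark a 1.5-fold change and the dashed line the median of 0.15. DEMs were found at all levels, from miR-212-5p, which had 3 to 71 raw counts per library, to miR-378a-3p, at 19150 to 41383 normalized RPM.

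Among miRNAs of cell division, the miR-17 to miR-92a cluster, which is transcribed under MYC and E2F, held the largest differences. In the low dose rats miR-19a-3p was at 25.1, 25.4 and 28.2 normalized RPM, and in the high dose rats at 128, 82.4 and 49.97. The groups did not overlap, and the log2 fold change was 1.73 ± 0.33 (SE, adjusted p = 0.0698). Its sister miR-19b-3p was at 228, 216 and 238 in the low dose rats and at 683, 397 and 379 in the high dose rats, a log2 fold change of 1.10 ± 0.25. Each high dose rat was again above each low dose rat. Without replicate 24 these changes were 2.01 and 1.25, with adjusted p of 0.00281 and 0.0125.

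All 9 tested strands of this cluster had positive log2 fold changes, with a median of 0.43, and 3 of the 9 were higher DEMs. Over all tested miRNAs 12% were higher DEMs, 63 of 301 without replicate 24, and 189 of 301 were positive. Both miR-19b and miR-92a come from more than 1 hairpin, so their 3p reads cannot be placed in this cluster alone. Without replicate 24, 5 of the 9 were higher DEMs, miR-17-5p and miR-19a-5p in addition, and the median was 0.64. The third was miR-18a-5p, at 17.04, 13.7 and 17.8 in the low dose rats and at 56.9, 31.9 and 14.2 in the high dose rats, where replicate 24 lay within the low dose range. In the related cluster of miR-106b, miR-93 and miR-25, which lies in an intron of the replication gene Mcm7, 1 of 6 strands was a higher DEM. It was miR-93-3p, with 3.95, 3.00 and 2.66 in the low dose rats and 7.33, 12.8 and 6.25 in the high dose rats (log2 fold change 1.45 ± 0.39). The guide strand of the same hairpin, miR-93-5p, had a log2 fold change of -0.09. Without replicate 24 the strand miR-25-5p, at 0.99, was a higher DEM as well.

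The oncomirs miR-221 and miR-222 repress the cell cycle inhibitor p27. Of their 3 tested strands 2 were higher DEMs, against 12% of all tested miRNAs, and the median of the 3 was 0.69. The guide strand miR-221-3p, at 0.17, was not a DEM. Its scarcer partner miR-221-5p, with at most 159 raw counts, was one at 0.71. For miR-222-3p the low dose rats were at 36.7, 29.9 and 31.4 and the high dose rats at 52.96, 60.2 and 45.2, without overlap (log2 fold change 0.69 ± 0.21). In the cluster of miR-322 and miR-503, whose members repress cyclin genes, 1 of 7 strands was a lower DEM, against 5.65% of all. This was miR-542-3p, at 90.5, 104 and 106 in the low dose rats and at 74.5, 60.3 and 41.9 in the high dose rats. Without replicate 24 its log2 fold change was -0.57, short of the fold threshold, and 0 of the 7 were DEMs. None of the 7 tested strands of miR-15, miR-16, miR-195 and miR-497, which also repress cyclins, was a DEM. Leaving out replicate 24 gave 2, miR-15b-5p at 0.69 and miR-195-3p at -0.78.

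Among inflammation miRNAs, 2 of 5 strands were higher DEMs and all 5 were positive, with a median of 0.59. Over all tested miRNAs 12% were higher DEMs and 189 of 301 were positive. The passenger strand miR-21-3p was at 244, 204 and 254 normalized RPM in the low dose rats and at 776, 678 and 248 in the high dose rats, a log2 fold change of 1.28 ± 0.38 (adjusted p = 0.108). Replicates 22 and 23 lay above all low dose rats, whereas replicate 24 lay within their range. For miR-155-5p, which is induced in activated macrophages and lymphocytes, the low dose rats were at 27.4, 32.3 and 37.3 and the high dose rats at 83.9, 88.8 and 27.2. Replicate 24 was the lowest of the 6. Without it the log2 fold changes of miR-21-3p and miR-155-5p were 1.64 and 1.42, with adjusted p of 0.00242 and 0.00478, and miR-146b-5p was a higher DEM too, at 0.94. The guide strand miR-21-5p, among the most abundant miRNAs of these livers, had a log2 fold change of 0.24 ± 0.12 (adjusted p = 0.256).

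The miR-132 and miR-212 hairpins, which are induced by the transcription factor CREB, showed a like order of rats. For miR-132-3p the low dose rats were at 6.27, 4.17 and 7.15 and the high dose rats at 19.7, 24.99 and 4.93 (log2 fold change 1.49 ± 0.56). The strand miR-212-5p rested on few reads, with 3, 4 and 6 raw counts in the low dose rats and 31, 71 and 8 in the high dose rats. Its log2 fold change of 2.42 ± 0.80 was the largest of the DEMs. Of the 3 tested strands 2 were higher DEMs, against 12% of all tested miRNAs, and without replicate 24 all 3 were. Of the 36 higher DEMs, 7 had this rat within or below the low dose range, namely miR-132-3p, miR-155-5p, miR-18a-5p, miR-21-3p, miR-212-5p, miR-423-3p and miR-484. They were picked after their values were seen, and 0 of the 17 lower DEMs had this rat within the low dose range.

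Of 4 tested leukocyte strands 2 were higher DEMs with the high dose, against 12% of all tested miRNAs. The summed level of the 4 strands, most of it from miR-142-5p, was 2319 to 3051 normalized RPM in the low dose rats. In the high dose rats it was 3940 to 4174, without overlap, replicate 24 included. The strand miR-142-5p, found in most leukocytes, fell short of the fold threshold at 0.54 ± 0.15. The 2 DEMs were the neutrophil and monocyte miRNA miR-223-3p and the lymphocyte miRNA miR-150-5p, and the median of the 4 was 0.59. For miR-223-3p the low dose rats were at 67.6, 49.4 and 72.3 and the high dose rats at 113, 129 and 78.7 (log2 fold change 0.76 ± 0.25). Without replicate 24 the 2 DEMs were miR-223-3p at 0.94 and miR-142-3p at 0.62, while miR-150-5p, at 0.48, was not one. In whole liver, more cells of a type and more RNA per cell cannot be told apart. The part of blood cells in the inflammation result was not tested. Of the 4 erythroid strands 0 were DEMs. The log2 fold change was positive for 3, miR-451-5p at 0.73, miR-144-3p at 0.47 and miR-144-5p at 0.09. It was negative for miR-486, at -0.53. The sum of the 4 strands, most of it from miR-486, was 2774, 3105 and 5956 in high dose replicates 22, 23 and 24. In the low dose rats this sum was 4166 to 6255. Without replicate 24, which lay within the low dose range, the sums of the high dose rats were below those of every low dose rat. In that setting 1 strand, miR-486, was a lower DEM (log2 fold change -0.95, adjusted p = 0.0161).

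Among miRNAs of the matrix and of mesenchymal cells, the miR-29 family, which represses collagen genes, had 2 higher DEMs of 5 strands. The median was 0.54, with all 5 positive, whereas over all tested miRNAs 12% were higher DEMs and 189 of 301 were positive. For miR-29a-3p the low dose rats were at 1132, 1309 and 1323 and the high dose rats at 1973, 1900 and 3566 (log2 fold change 0.98 ± 0.26, adjusted p = 0.0942). All high dose rats were above all low dose rats, and replicate 24 was the highest. Without it the change was 0.63, with an adjusted p of 0.0136, and the median of the family was 0.20. For miR-29b-3p, which shares the seed, the low dose rats were at 24.3, 24.5 and 27.7 and the high dose rats at 46.1, 34.8 and 41.7. The third member, miR-29c-3p, was not a DEM, with 257, 215 and 459 in the high dose rats against 215, 208 and 217.

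Of 7 strands of stellate and smooth muscle cells 1 was a higher DEM, against 12% of all tested miRNAs, namely the smooth muscle miRNA miR-145-5p. It was at 168, 172 and 174 in the low dose rats and at 443, 205 and 402 in the high dose rats, without overlap (log2 fold change 1.03 ± 0.28). Its partner strand miR-145-3p had a log2 fold change of 0.26, and miR-143-3p from the same transcript of -0.35 ± 0.17. The last 2 were not DEMs. Without replicate 24, 3 of the 7 were higher DEMs, with miR-199a-5p at 0.70 and miR-214-3p at 0.59 beside miR-145-5p at 0.92. In that setting 63 of all 301 miRNAs were higher DEMs.

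Among the other leading higher DEMs, miR-128-3p, which is cut from hairpins in introns of R3hdm1 and Arpp21, was at 81.2, 49.95 and 44.7 in the low dose rats and at 137, 207 and 109 in the high dose rats (log2 fold change 1.36 ± 0.32). For miR-23a-3p, which is made from a transcript shared with miR-27a and miR-24, the low dose rats were at 300, 332 and 334 and the high dose rats at 548, 468 and 567. Its log2 fold change of 0.71 ± 0.16 stood beside 0 other DEMs among the 9 tested strands of miR-23, miR-27 and miR-24. Both arms of the miR-374 hairpin were higher DEMs, with miR-374-5p at 38.98, 29.5 and 39.2 in the low dose rats and at 92.7, 59.7 and 57.3 in the high dose rats. Finally miR-186-5p was at 2173, 2192 and 2141 in the low dose rats and at 3941, 3984 and 2888 in the high dose rats (log2 fold change 0.73 ± 0.16). None of these overlapped between the doses.

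Hepatocyte miRNAs moved in different directions. Of 11 tested strands of miR-122, miR-192, miR-194, miR-148a and miR-101, 2 were lower DEMs and 1 was a higher DEM, with a median of -0.34. The shares over all tested miRNAs were 5.65% lower and 12% higher DEMs. Here miR-101 was added to the hepatocyte markers, and its strand miR-101b-3p was 1 of the 2 lower DEMs. The most significant difference of the whole comparison was that of miR-148a-5p, the passenger strand of the miR-148a hairpin. It was at 5585, 6072 and 5556 normalized RPM in the low dose rats and at 2396, 2174 and 3527 in the high dose rats, a log2 fold change of -1.09 ± 0.20 (adjusted p = 0.0698). The guide strand miR-148a-3p had a log2 fold change of -0.37 ± 0.17 and did not pass the test. For miR-101b-3p, which represses the histone methyltransferase gene Ezh2, the low dose rats were at 10883, 9070 and 11300 and the high dose rats at 6612, 5536 and 7645 (log2 fold change -0.66 ± 0.16).

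The 2 arms of the miR-122 hairpin, which is made almost only in hepatocytes, differed. The passenger strand miR-122-3p was at 1357, 1142 and 1120 in the low dose rats and at 1880, 1756 and 2256 in the high dose rats, without overlap (log2 fold change 0.70 ± 0.16). The guide strand miR-122-5p was at 43807, 51714 and 48186 in the low dose rats and at 37199, 28420 and 47533 in the high dose rats (log2 fold change -0.34 ± 0.19, adjusted p = 0.276). Here the groups overlapped, through replicate 24. Without this rat the change of miR-122-5p was -0.55 (adjusted p = 0.0298), and without replicate 23 it was -0.18. The most abundant strand, miR-192-5p, had a log2 fold change of -0.28 ± 0.13, with 177128 to 227967 in the high dose rats and 231257 to 256766 in the low dose rats. Without replicate 24, 4 of the 11 strands, miR-101a-3p and miR-101b-3p among them, were lower DEMs and 1 was higher. Of all 301 miRNAs 23 were lower and 63 higher DEMs in that setting.

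Over all hairpins, both arms were tested for 81, and for 4 of them (miR-181c, miR-200a, miR-374 and miR-423) both arms were DEMs, each pair in the same direction. For 19 more a single arm was a DEM. Of the 31 seeds carried by at least 2 tested miRNAs, 3 had at least 2 DEMs in 1 direction, those of miR-19, miR-29 and the 3p strands of miR-181. This count covers the 270 miRNAs matched to a sequence. It leaves out DEMs such as miR-200a-3p and miR-378b, so any seed these share with other DEMs was not counted. The difference between arms was not tested.

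Of 7 tested strands of the miR-181 family, known from lymphocytes and vascular cells, 3 were lower DEMs, against 5.65% of all tested miRNAs. All 7, and 112 of all 301 miRNAs, had log2 fold changes below 0, and the median of the 7 was -0.58. The nearest to 0, miR-181b-5p, at -0.0047, was positive without replicate 24 and under library size alone. In the low dose rats miR-181c-5p was at 483, 512 and 496 and in the high dose rats at 304, 278 and 309 (log2 fold change -0.74 ± 0.15, adjusted p = 0.0698). The doses were far apart relative to the spread within each, and replicate 24 lay with the other high dose rats. For miR-181a-1-3p the low dose rats were at 114, 91.6 and 103 and the high dose rats at 63.3, 71.6 and 47.4. The abundant miR-181a-5p fell short of the fold threshold, at 7216, 7308 and 7037 against 4976, 5380 and 5353. The sum over the family was 7991 to 8269 in the low dose rats and 5685 to 6095 in the high dose rats.

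Epithelial miRNAs of the miR-200 family, which repress Zeb1 and Zeb2 and mark bile duct cells in liver, were split. Of 6 strands 3 were lower DEMs, both arms of miR-200a and miR-200b-3p, and 1, miR-141-3p, was a higher DEM. Over all tested miRNAs 5.65% were lower and 12% higher DEMs. In the low dose rats miR-200a-3p was at 126, 195.5 and 148 and in the high dose rats at 89.2, 71.9 and 55.3, without overlap (log2 fold change -1.12 ± 0.25). For miR-200b-3p the low dose rats were at 437, 718 and 423 and the high dose rats at 298, 383 and 187. The third member of that cluster, miR-429, was at 106, 126 and 103 against 132, 184 and 112, with a log2 fold change of 0.35 ± 0.22. Without replicate 24, 2 of the 6 strands were lower DEMs and 0 were higher.

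Further lower DEMs included miR-378a-3p, encoded in an intron of the metabolic coactivator gene Ppargc1b. It was at 38414, 35032 and 41383 in the low dose rats and at 19744, 19150 and 27568 in the high dose rats (log2 fold change -0.79 ± 0.17). Its relative miR-378b was also a lower DEM, with a log2 fold change of -0.66 ± 0.20. For miR-1843a-5p the low dose rats were at 148, 150 and 152 and the high dose rats at 77.4, 76.0 and 102, and for miR-1843b-5p at 29.2, 24.1 and 26.6 against 13.5, 15.4 and 15.8. In the miR-30 family 1 of 11 strands was a lower DEM, against 5.65% of all tested miRNAs. This was miR-30e-3p, with 717, 675 and 678 against 386, 431 and 550. Each of these lower DEMs was without overlap.

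The imprinted Dlk1-Dio3 cluster, whose miRNAs come from the maternal chromosome, held the lowest log2 fold change of the DEMs. In the low dose rats miR-411-5p was at 34.9, 43.7 and 40.6 and in the high dose rats at 15.4, 8.33 and 1.32 (log2 fold change -2.25 ± 0.67, adjusted p = 0.108). All 6 tested strands of the cluster were below 0, against 112 of all 301, with a median of -1.19. Of the 6, 1 was a lower DEM, against 5.65% of all tested miRNAs. Replicate 24 had the lowest sum, 19.97 normalized RPM, against 64.3 and 101 in the other high dose rats and 129 to 149 in the low dose rats. Without it the median was -0.66 and miR-411-5p was at -1.75 (adjusted p = 0.0121).

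**Figure D3:**
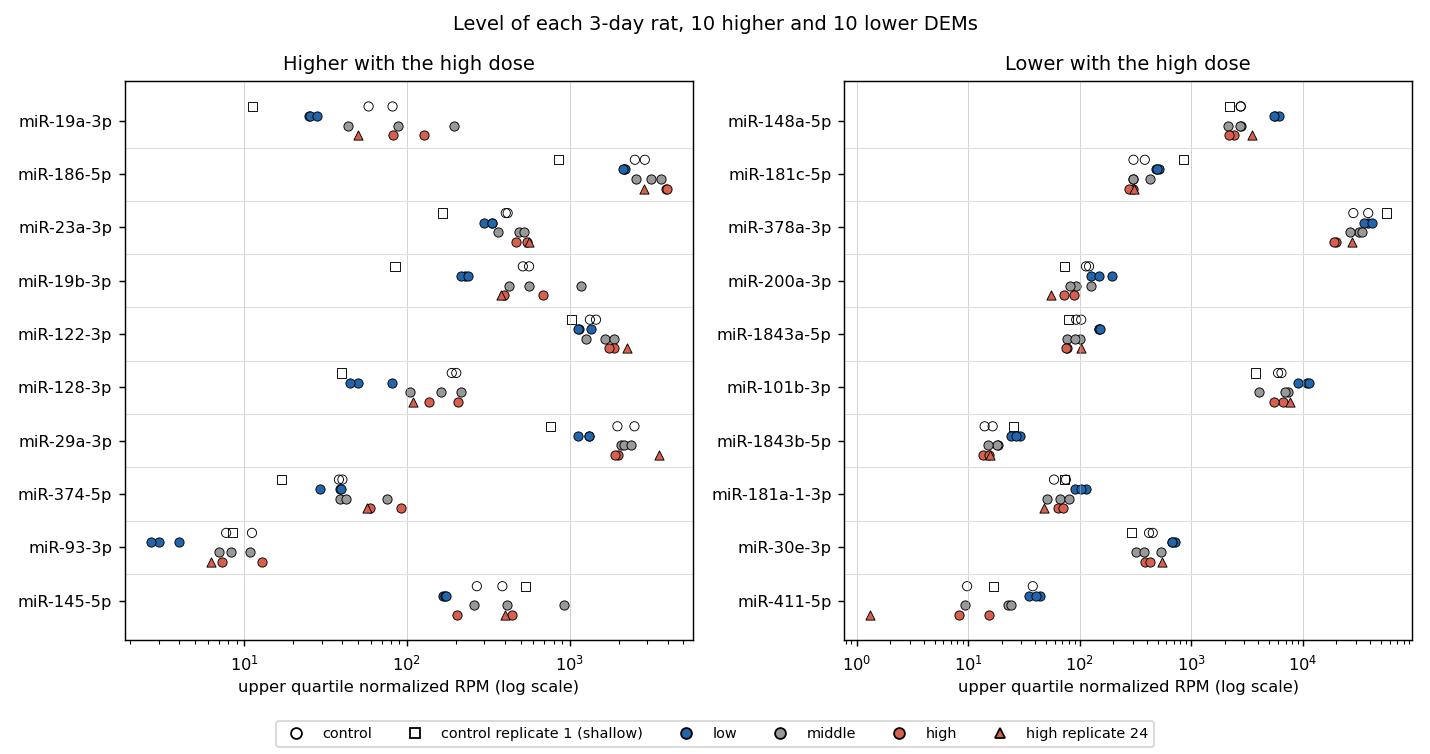
Each row is a miRNA and each point a rat of the 3-d groups, in upper quartile normalized RPM on a log scale, with open symbols for controls, blue for low, grey for middle and red for high dose, and a triangle for high dose replicate 24. The rows were picked among DEMs without overlap, so that blue and red points do not overlap in any row by choice. In miR-148a-5p and miR-93-3p the grey and open points lie with the red ones.

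In the other groups few strands were DEMs. None of the 8 let-7 guide strands, which repress growth genes, and none of the 9 let-7 passenger strands was a DEM, with medians of 0.00 and 0.33. The guide strand let-7a-5p had a log2 fold change of -0.44 ± 0.15 with an unadjusted p of 0.0212 in edgeR's quasi-likelihood test, and let-7g-5p, which the list did not hold, of -0.49 ± 0.13, both short of the fold threshold. Of 9 strands of miR-99, miR-100 and miR-125 0 were DEMs, and without replicate 24 miR-99a-3p and miR-125b-2-3p were lower at -0.88 and -0.69. Markers of endothelium, skeletal or heart muscle, pancreas and brain held 0 DEMs among 7 tested strands, and the smallest p-values there belonged to miR-126a-5p, miR-133a-3p, miR-375-3p and miR-138-5p, with log2 fold changes of -0.07 ± 0.14, 0.23 ± 0.55, -0.17 ± 0.22 and 0.15 ± 0.27. The clusters of miR-193 and miR-365 had a higher DEM, miR-365-3p (log2 fold change 0.75 ± 0.20), and a lower one, miR-193a-5p. Without replicate 24 miR-365-3p was at 0.56, short of the fold threshold. Of 10 strands chosen on earlier results of these samples for being raised against controls, 1 was a DEM, miR-219a-5p, at 7.91, 9.13 and 8.55 in the low dose rats and at 26.9, 9.86 and 12.8 in the high dose rats. Of all tested miRNAs 12% were higher DEMs, and without replicate 24 these were 63 of 301. Without replicate 24, 6 of these 10 strands were higher DEMs, and the median log2 fold change of the 10 was 0.65 in place of 0.42. Among the 6, miR-466b-2-3p and miR-466b-4-3p had identical values and are not separate observations. Only miR-6329 of the 6 passed the adjustment in that setting (adjusted p = 0.0293). For miR-455-3p the high dose rats were at 94.9, 80.2 and 73.7 and the low dose rats at 74.0, 52.2 and 51.2 (log2 fold change 0.49 ± 0.22, adjusted p = 0.227).

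**Figure D4:**
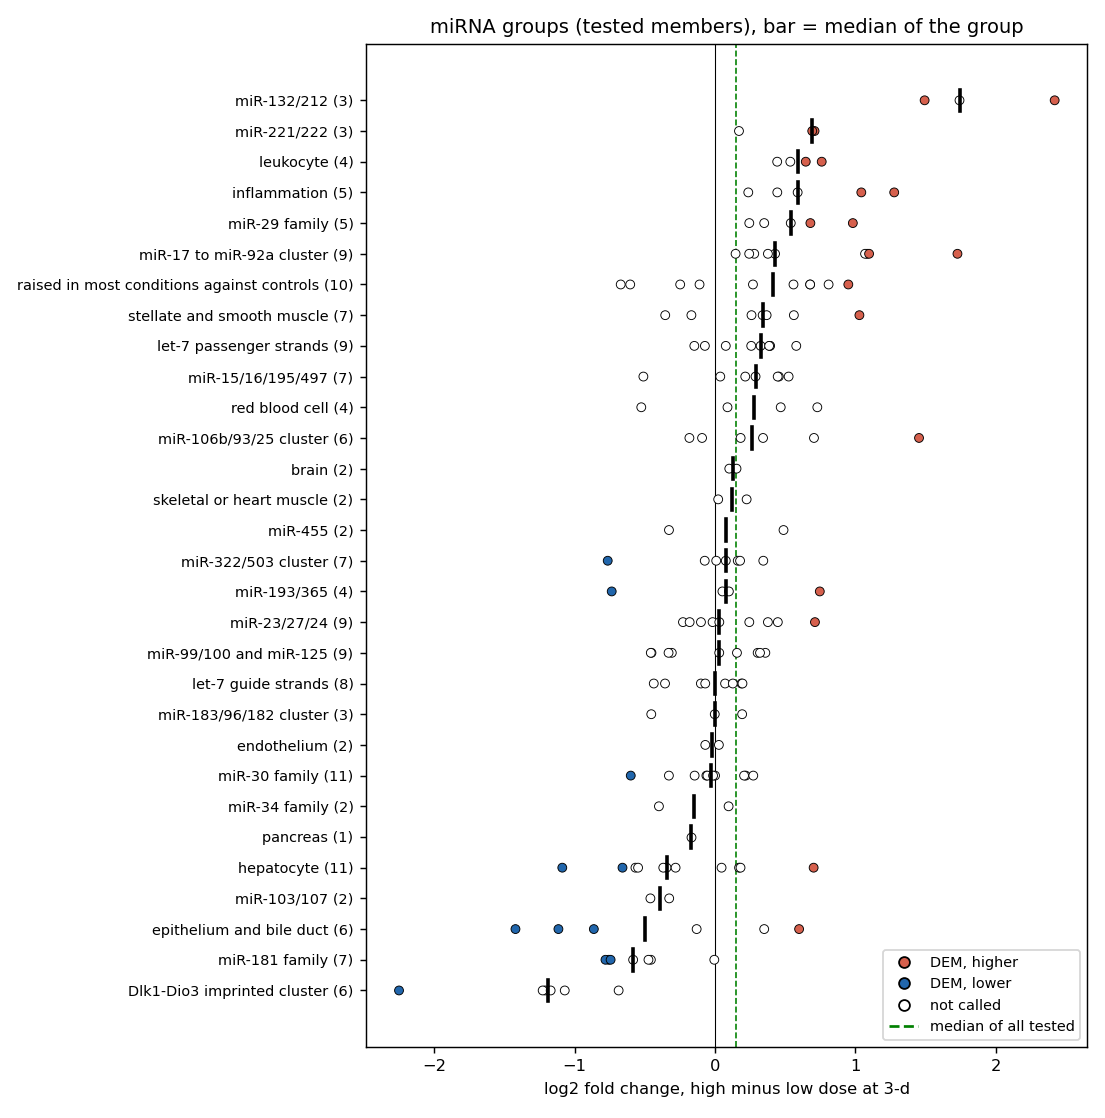
Each row is a group of miRNAs with its number of tested strands, each point a strand, placed by its log2 fold change of high over low dose at 3-d. Red points are higher DEMs, blue points lower DEMs, black bars the group medians and the dashed line the median of all 301. The group of miR-132 and miR-212 lies farthest to the right and the Dlk1-Dio3 cluster and the miR-181 family farthest to the left.

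The middle dose, 15 mg/kg, differed in fewer miRNAs from the high dose than from the low dose at 3-d, and its mean was nearer to that of the high dose for 187 of 301 miRNAs. Between middle and low dose 52 miRNAs (17.3%) were DEMs, 30 of them higher at the middle dose and 22 lower. Between high and middle dose 13 (4.32%) were, 10 of them higher at the high dose and 3 lower, and without high dose replicate 24 these were 25, 19 and 6. These comparisons share their groups with the one above. All 3 middle dose rats lay beyond all low dose rats, in the direction of the high dose, for 19 of the 36 higher and 13 of the 17 lower DEMs. Control replicates 2 and 3 did so too, for 21 of the higher and 13 of the lower DEMs. The DEMs were selected on these same low dose rats, which favors such counts, and the share over all 301 was not computed. Over all 301, the mean of these controls was nearer to that of the high dose than to that of the low dose for 163. For miR-148a-5p these controls were at 2786 and 2771, beside the high dose and far from the 5556 to 6072 of the low dose rats. For that strand it was the low dose group that lay apart from the other 3-d groups. In contrast miR-21-3p was at 184, 253 and 70.7 in the middle dose rats and at 116 and 93.8 in these controls, below replicates 22 and 23.

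At later times the same doses were compared in other rats. High against low dose gave 56 DEMs (18.6%) after 7 days, 83 (27.6%) after 14 days and 36 (12%) after 28 days. The higher ones among them were 44 (14.6%), 21 (6.98%) and 30 (9.97%) of the 301, and the lower ones 12 (3.99%), 62 (20.6%) and 6 (1.99%). Of the 36 higher DEMs at 3-d, 22 were higher DEMs again after 7 days, 6 after 14 and 5 after 28. Of the 17 lower DEMs, 5, 9 and 0 were lower DEMs again. In the opposite direction there was 1 of the 36 after 14 days and 1 of the 17 after 14 and after 28 days. Without high dose replicate 24 at 3-d, 33, 6 and 5 of 63 higher DEMs and 7, 13 and 1 of 23 lower DEMs were found again, and after 14 days 9 of the 63 were lower DEMs. The log2 fold change of miR-19a-3p at these times was 1.74, 1.42 and -0.16. For miR-148a-5p it was -1.04, -0.86 and 0.06.

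The change of the dose difference between times was tested in a fit of all 48 libraries. From 3-d to 7-d 0 of 301 miRNAs (0%) passed the adjustment, and 9 had an unadjusted p below 0.05 in edgeR's quasi-likelihood test. From 3-d to 14-d 11 (3.65%) passed, and from 3-d to 28-d 10 (3.32%). At 28-d miR-411-5p was at 2.61, against -2.25 at 3-d (adjusted p of the change 8.86e-05), and miR-200a-3p at 0.37, against -1.12 (adjusted p 0.00731). The difference for miR-29a-3p was 0.98 at 3-d and -0.30 at 28-d (adjusted p 0.0234). For miR-132-3p it was 1.49 at 3-d and -1.38 at 14-d (adjusted p 0.00314).

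**Figure D5:**
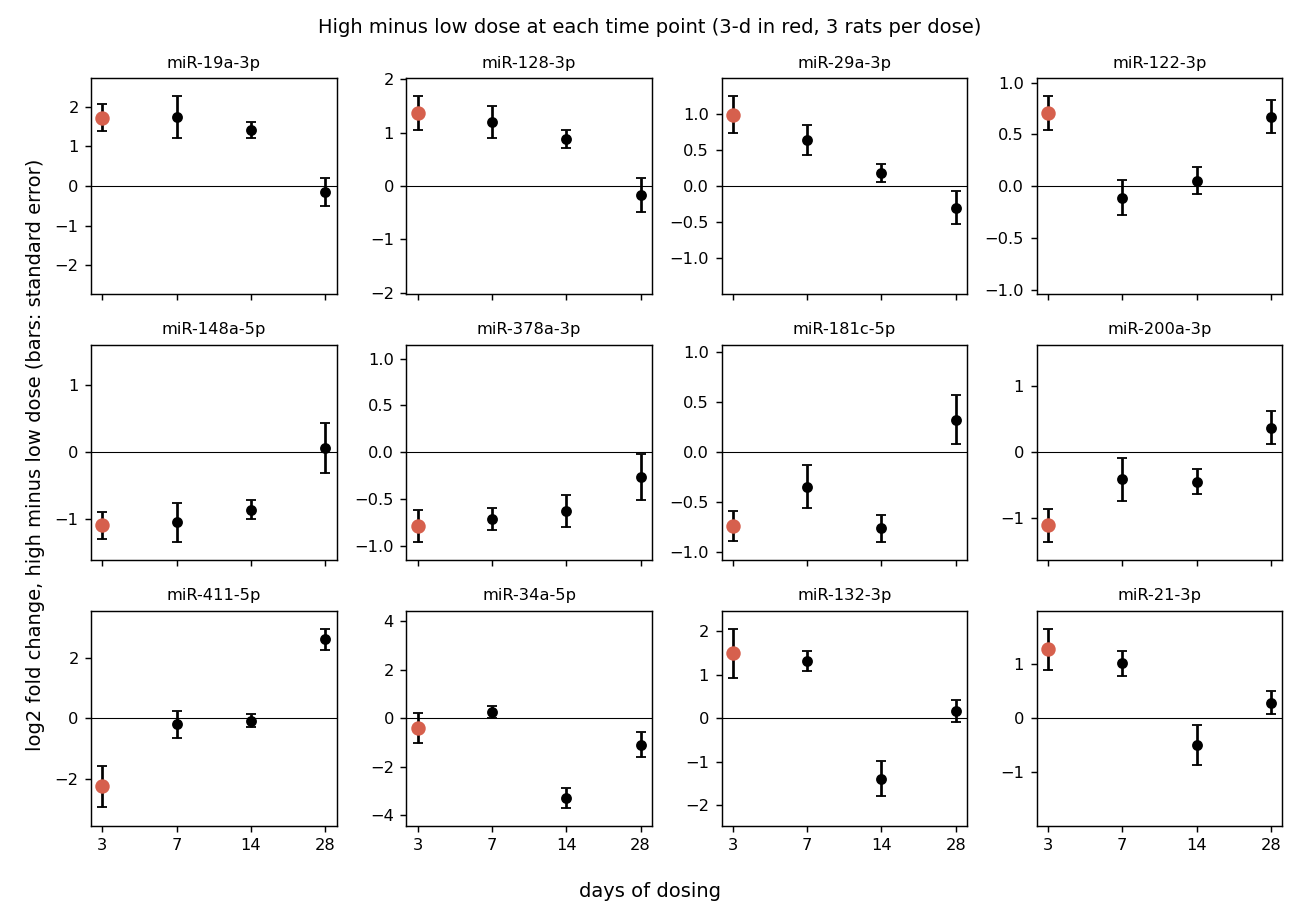
Each panel is a miRNA, with the days of dosing on the x axis and the log2 fold change of high over low dose on the y axis, 3 rats per dose, bars for the standard error and red for 3-d. In miR-19a-3p and miR-148a-5p the 3-d, 7-d and 14-d points lie on 1 side of 0 and the 28-d point near 0, and in miR-411-5p the 3-d and 28-d points lie on opposite sides.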

How the data were processed

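Small RNA of liver was sequenced from 48 rats, and the 6 libraries compared here are 3 of the high and 3 of the low dose group at 3-d. The authors trimmed adaptors, kept reads of miRNA length, and counted reads on rat miRBase hairpins with miRDeep2. The deposited values are raw counts per mature miRNA and precursor, without normalization, filter or pooling. The submitters' processing notes name FastQC and the rn5 build. A mature miRNA listed for several precursors (71 of 764) kept the precursor row with the largest count. The filter kept miRNAs that reached 5 RPM in 3 or more of the 48 libraries.

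High and low dose were compared by the quasi-likelihood F-test of edgeR (4.0.16, R 4.3.3) on 6 libraries, scaled by the upper quartile. DEMs had p below 0.05 and a fold change above 1.5. Adjusted p-values are Benjamini-Hochberg over 301 miRNAs, and standard errors come from the fold change and F statistic. Normalized RPM use the factors of all 48 libraries. Middle dose and later times were compared in the same way. With 3 against 3, exact permutation tests cannot go below 0.1, so none was used. On simulated data with these depths, 39 of 45 miRNAs changed 2-fold, 50 of 50 changed 4-fold and 4 of 206 unchanged ones were called. All simulated miRNAs had the same spread between rats and no library stood apart, so these counts need not hold for the data. The members, the miRNA groups and the rule for named miRNAs were chosen with earlier results of these data known. Named are the 10 higher and 10 lower DEMs with the smallest p among those without overlap, those the study names, the smallest p of each group, the 5 most abundant and the 3 with the smallest p in each change between times, while other strands were named after their values were seen. Python 3.11.15, pandas 2.3.3, limma 3.58.1 and DESeq2 1.42.0 were also used. The alternatives were other scalings, filters, precursor rules, tests and sets of libraries.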

Additional observations from a re-analysis of the deposited data

Results flagged for a closer look

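In 12 miRNAs named above or by the same rule, the difference between high and low dose at 3-d differed from that at a later time by a test of the change itself, in the fit of all 48 libraries. From 3-d to 14-d the log2 difference (3-d minus 14-d) was 2.89 for miR-34a-5p (adjusted p 0.0147), 2.88 for miR-132-3p, 1.78 for miR-21-3p (adjusted p 0.0483), 1.87 for miR-6329 (adjusted p 0.00651) and 1.18 for let-7c-5p (adjusted p 0.0379). It was -2.38 for miR-434-3p and -3.65 for miR-136-5p, both of the Dlk1-Dio3 cluster. From 3-d to 28-d (3-d minus 28-d) it was 1.28 for miR-29a-3p, 3.11 for miR-212-5p, -1.49 for miR-200a-3p, -1.31 for miR-181a-1-3p, -4.87 for miR-411-5p, -5.07 for miR-434-3p and -4.70 for miR-136-5p. High dose replicate 24 had the lowest value of the 6 rats for miR-34a-5p, miR-6329, miR-411-5p, miR-434-3p, miR-136-5p, miR-200a-3p and miR-181a-1-3p. Its part in these differences is not given here for each miRNA. At 3-d alone, leaving it out moved the log2 fold change from -0.40 to 0.10 for miR-34a-5p and from -2.25 to -1.75 for miR-411-5p. Leaving it out gave 27 miRNAs past the adjustment for 14-d and 20 for 28-d.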

How the results depend on the processing

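No paired analysis was possible because each library has its own running number, so the groups share none. The 53 DEMs became 85 with no filter and 0 with adjusted p-values, and the 36 higher DEMs became 0. The 17 lower DEMs became 30 with DESeq2's size factors, 8 with library size alone, 53 with no filter, 31 with the Wald test of DESeq2 and 0 with adjusted p-values. Leaving out 1 library gave 35 (without low dose replicate 44) to 86 DEMs (without high dose replicate 24), 20 to 63 higher (23 without high dose replicate 22 or low dose replicate 45, and 20 without low dose replicate 44), 14 to 23 lower and 0 to 80 past the adjustment. The number past the adjustment, 0, became 3 with library size alone, 24 with no filter, 16 with at least 5 RPM in each library, 22 with the exact test, 34 with the Wald test and 41 in the fit of all 48 libraries. Without high dose replicate 24 and, chosen after seeing the data, with TMM, DESeq2's size factors and library size alone, there were 83, 81 and 109 DEMs, 99 higher with the last, 33, 41 and 10 lower, and 86, 79 and 126 past the adjustment. The changes from 3-d to 14-d, 11 as reported, were 6 under TMM and 5 under library size alone, and 3 to 27 when 1 library was left out, with 4 without high dose replicate 23 or low dose replicate 43, and 3 without low dose replicate 44 or 45. Those from 3-d to 28-d, 10 as reported, were 17 under TMM, 19 under library size alone and 20 without high dose replicate 24. Also chosen after seeing the data, high against middle dose at 3-d gave 25 DEMs without high dose replicate 24, 19 higher and 6 lower, and 1 lower DEM was found again at 28-d.

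Signs turned for 9 named miRNAs, none of them a DEM. For miR-34a-5p the log2 fold change was 0.0995 without high dose replicate 24, and 0.0186 with TMM and 0.3215 with library size alone in addition. That of miR-126a-5p was 0.0371 with library size alone and 0.0567 also without that rat. That of miR-133a-3p was -0.4775 without it, and -0.5621, -0.6343 and -0.2605 with the 3 scalings, and -0.0367 without low dose replicate 43. That of miR-375-3p was 0.0563 without low dose replicate 43 and 0.1113 without high dose replicate 24 and library size alone, and that of miR-138-5p was -0.0604 without that rat and DESeq2's size factors. That of miR-22-3p was -0.0009 with no filter and, without that rat, -0.0835, -0.1637 with TMM and -0.2311 with DESeq2's size factors. In the last 2 settings miR-26a-5p was at -0.0565 and -0.1235 and let-7c-5p at -0.0233 and -0.0989. Without high dose replicate 22, miR-6329 was at -0.1198. The causes were not tested. Of the other values of named miRNAs, 986 kept direction and side of the threshold, 72 lost and 33 gained the call. Over the libraries left out in turn these values ranged from -0.8216 to 0.0995 for miR-34a-5p, from -0.4775 to 0.6471 for miR-133a-3p, from -0.3293 to 0.0563 for miR-375-3p, from -0.0835 to 0.2180 for miR-22-3p and from -0.1198 to 0.6597 for miR-6329. With 3 rats per dose, miRNAs with few reads such as miR-212-5p are the least precise.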
